A study of Homo sapiens with 5 samples.

Results

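Binding at 9 genes of glutathione (GSH) synthesis and recycling was read from CUT&Tag peak lists of SNU638, a human gastric cancer cell line. The genes were GCLM, GSS, GGCT, OPLAH, GSR, GPX1, GPX2, GPX3 and GLRX, taken by name from the pathway, out of 19689 genes with a protein-coding transcript. Peaks were counted as belonging to a gene when they shared at least 1 bp with its GENCODE release 44 entry on GRCh38 or with the 10 kb to each side. In CUT&Tag an antibody brings a tethered transposase to its target, which then inserts sequencing adapters into the DNA nearby. Antibodies to ACTL6A, BRG1 and NRF2 were used in 1 library each, and IgG, the background control, in 2, called IgG 1 and IgG 2. All 5 came from the same cell line, the labels name no treatment or genotype, and 1 cell line limits what they stand for. Without replicate libraries of an antibody there was no replicate error, so no difference was tested.

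GSH is built in 2 steps, from glutamate and cysteine to γ-glutamyl-cysteine and then with glycine to GSH. GCLM is the modifier subunit of the enzyme of the first step, whose catalytic subunit is GCLC, and GSS carries out the second. GGCT and OPLAH return γ-glutamyl residues to glutamate by way of 5-oxoproline. GPX1, GPX2 and GPX3 spend GSH on peroxides, GLRX spends it on protein disulfides, and GSR reduces the oxidised form back to GSH with NADPH. BRG1 is a catalytic ATPase of the SWI/SNF chromatin remodelling complex and ACTL6A an actin-like subunit of it. NRF2 is a transcription factor of the antioxidant response that binds the antioxidant response element (ARE), and several GSH genes are among its known targets.

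The lists held 23917 peaks for ACTL6A, 48793 for BRG1, 9045 for NRF2, 11 for IgG 1 and 1746 for IgG 2. Fragments found and expected at each summit were worked back from the fold and p-value in the lists. Every fragment number given below for a peak is the one at its summit, not over its whole width. A called peak had at least 3 fragments for ACTL6A and BRG1 and at least 8 for NRF2. These are the lowest numbers seen, and whether a site is called also depends on the number expected there. At OPLAH, 11 BRG1 fragments against 3.11 expected reached a -log10 q of only 1.62. The lack of a peak was therefore read only as no peak called at this depth. All 5 epithelial markers examined (EPCAM, CDH1, KRT8, KRT18 and KRT19) had a BRG1 peak at a transcriptional start site (TSS). Of 6 markers of immune, endothelial and fibroblast cells 1 did, the collagen gene COL1A1. Over all genes 63.5% had a BRG1 peak within 1 kb of a TSS, and neither count was tested against that share. A peak at a start says nothing of the RNA level.

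Over the 9 genes the lists held 36 peaks, 21 for BRG1, 8 for ACTL6A and 7 for NRF2. Neither IgG list had a peak there, and 0 of the 36 overlapped an IgG peak. Such absence was usual, since 0.0356% of all genes had an IgG 1 peak in this window and 1.67% an IgG 2 peak. Over the whole lists, 11.2% of NRF2 peaks overlapped an IgG 2 peak, against 1.74% for ACTL6A and 0.693% for BRG1. For NRF2 this was 0.274% of the peaks at a TSS and 23.2% of those elsewhere. BRG1 peaks were found over 8 of the 9 genes (82.7% of all genes), ACTL6A peaks over 7 (66.9% of all genes) and NRF2 peaks over 6 (41.1% of all genes). This count depends on gene length, and the median gene here spanned 12700 bp against 27330 bp for all genes. At a TSS, meaning within 1 kb of where any coding transcript of the gene begins, 7 of the 9 had a BRG1 peak (63.5% of all genes), 4 an ACTL6A peak (38.5%) and 5 an NRF2 peak (28.1%). GSS, GGCT and GPX1 had all 3 (22.1% of all genes). GCLM had ACTL6A and BRG1 without NRF2 (14.7%), OPLAH and GLRX had BRG1 and NRF2 without ACTL6A (5.60%), GSR had BRG1 alone (21.1%), and GPX2 and GPX3 had none (34.4%). No test was made of the 9 genes against the genome, and the percentages are the background against which these counts stand.

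**Figure D1:**
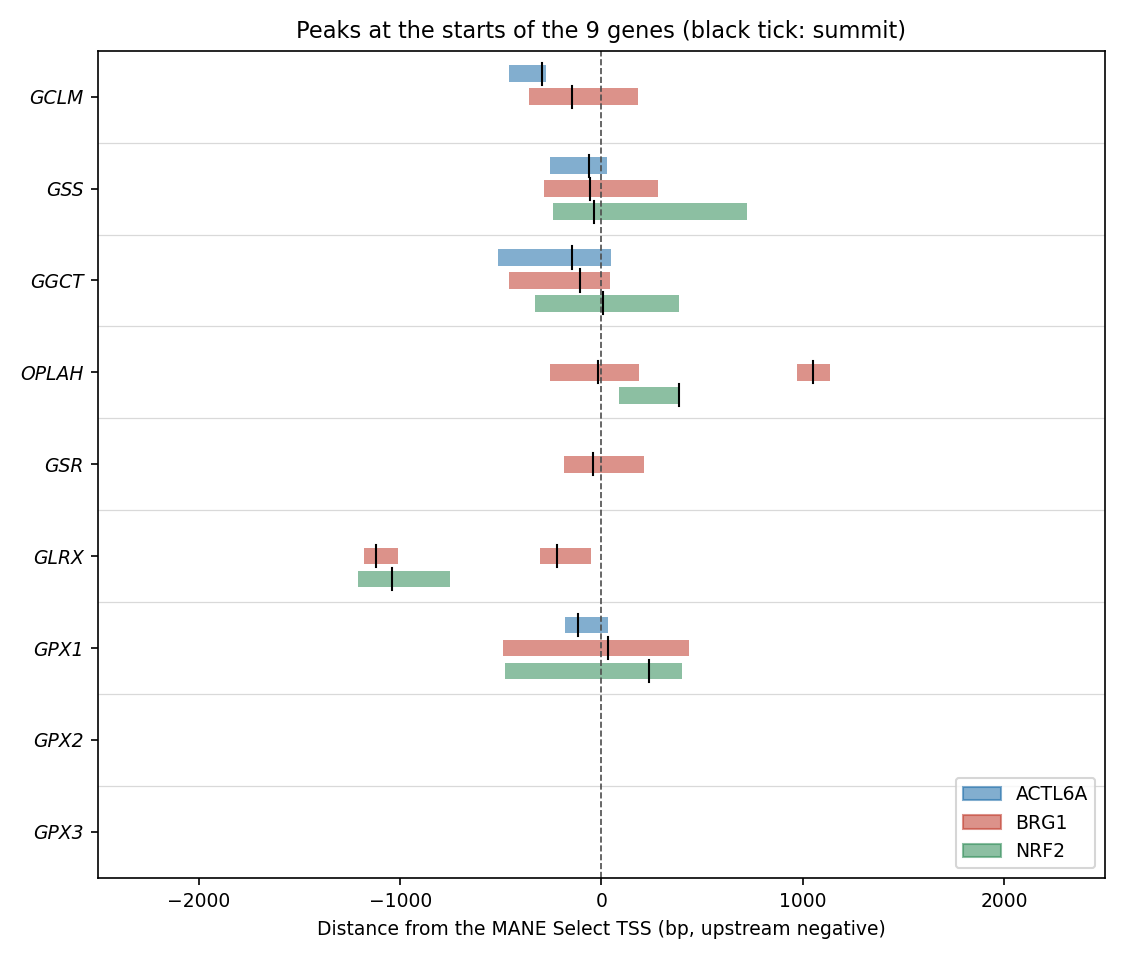
Peaks near the MANE Select TSS of each gene, with distance along the gene in bp on the x axis (upstream negative) and 1 row per gene. Bars are peaks of ACTL6A (blue), BRG1 (red) and NRF2 (green), and a black tick marks each summit. GSS, GGCT and GPX1 carry all 3 colours, GSR only red, and GPX2 and GPX3 none.

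GCLM (ENSG00000023909) occupies bases 93885199 to 93909456 of chromosome 1, minus strand, and its MANE Select transcript, ENST00000370238, has 7 exons and starts at 93909430. The BRG1 peak over this start ran from 93909251 to 93909791, with 361 bp upstream of this start and 180 bp in the 5′ UTR. A further coding transcript, ENST00000615724, starts at 93909456. At its summit 48 fragments were found (exact Poisson 95% interval 35.4 to 63.6, counting error only) where 1.74 were expected, and with a -log10 q of 47.4 its rank was 1179, within the highest 2.42% of the BRG1 list. The ACTL6A peak, from 93909705 to 93909888, lay wholly upstream and held 6 fragments (2.20 to 13.1) against 0.337 expected. It shared 87 bp with the BRG1 peak, the summits were 148 bp apart, and it ranked 9440, in the highest 39.5%. So the start of GCLM stood high in the BRG1 list and lower in the ACTL6A list. The ratio of ACTL6A to BRG1 fragments was 0.125, below the interquartile range of 0.270 to 0.543 over the 7251 genes with both peaks at a TSS and whole fragment numbers in both lists, although it rests on 6 fragments. GSS, at 0.225, was also below that range, GPX1, at 0.357, lay within it, and GGCT, at 0.656, was above it. The ACTL6A fragments behind these were 9, 10 and 21. Counting error was not carried into the ratios, so places outside the range are uncertain.

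No NRF2 peak was called at the GCLM start. The nearest lay 30147 bp away, over the start of DNTTIP2. Of the 1629 genes whose highest BRG1 peak at a TSS had at least 48 fragments, 79.7% had an NRF2 peak at a TSS. The ARE core, searched as TGACNNNGC on both strands, had 1 match under a peak of GCLM, TGACTAAGC on the plus strand from 93909456 to 93909464. Its centre lay 30 bp upstream of the MANE Select start and 115 bp from the BRG1 summit. The match is a description of the letters and does not show a bound site. The 300 bases before the MANE Select start are printed because they hold the core and the summits of both peaks. They are on the plus strand, so the gene runs to the left, and capitals mark the core. The first 26 bases are 5′ UTR of ENST00000615724, whose start is the first base of the core.
GCLM chr1:93909431-93909730: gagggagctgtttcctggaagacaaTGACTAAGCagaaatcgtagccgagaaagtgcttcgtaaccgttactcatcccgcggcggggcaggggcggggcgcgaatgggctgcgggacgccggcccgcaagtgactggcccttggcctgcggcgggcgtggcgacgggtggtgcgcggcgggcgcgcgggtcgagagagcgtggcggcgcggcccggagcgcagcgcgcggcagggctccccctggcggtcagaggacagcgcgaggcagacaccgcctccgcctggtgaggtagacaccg

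GSS (ENSG00000100983, chromosome 20 from 34928432 to 34956027, minus strand) shares its start region with MYH7B, a myosin heavy chain gene on the opposite strand whose start lies 62 bp upstream of the MANE Select start of GSS at 34955806. All 3 antibodies had a peak there. The BRG1 peak ran from 34955526 to 34956092 and held 40 fragments (28.6 to 54.5) against 1.57 expected, in the highest 4.20% of its list. The ACTL6A peak ran from 34955779 to 34956060, inside the BRG1 peak, with 9 fragments (4.12 to 17.1) against 0.546 expected. The NRF2 peak, from 34955085 to 34956045, was the widest at 961 bp and held 24 fragments (15.4 to 35.7) against 4.80 expected. The ACTL6A and BRG1 summits were 3 bp apart, and the NRF2 summit lay 25 bp from the first and 22 bp from the second. All 3 summits fell between the MANE Select start of GSS and the start of MYH7B, so the genes cannot be told apart as the owner of the peaks.

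Away from the start, BRG1 had a peak in intron 6 of GSS, from 34938086 to 34938310, and one past the end of the gene, inside ACSS2, from 34919225 to 34919412. Each had 4 fragments against 0.271 expected, and both ranked 37475, in the highest 76.8%.

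GGCT (ENSG00000006625, minus strand, chromosome 7, 30496621 to 30504841) encodes γ-glutamylcyclotransferase, and its peaks were at the start only, 1 from each antibody. This gene had the highest ACTL6A peak of the group. From 30504781 to 30505341, it held 21 fragments (13.0 to 32.1) against 0.928 expected, with a -log10 q of 17.6 and rank 883, in the highest 3.69% of the list. Of all genes with an ACTL6A peak at a TSS, 10.1% had a higher one. The BRG1 peak, from 30504789 to 30505286, lay wholly inside the ACTL6A peak and held 32 fragments (21.9 to 45.2) against 1.34. The summits were 40 bp apart. The NRF2 peak, from 30504443 to 30505160, held 15 fragments (8.40 to 24.7) against 2.31, with its summit in the 5′ UTR of exon 1, 153 bp from that of ACTL6A. In the annotation all 3 peaks also lie within a readthrough gene, ENSG00000281039. The 200 bases upstream of the gene are printed on the plus strand because they hold the BRG1 and ACTL6A summits, in capitals in that order.
GGCT chr7:30504842-30505041: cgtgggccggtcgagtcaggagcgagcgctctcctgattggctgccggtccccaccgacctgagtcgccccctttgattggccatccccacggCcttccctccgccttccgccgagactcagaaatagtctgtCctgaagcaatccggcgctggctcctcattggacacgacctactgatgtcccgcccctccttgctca

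OPLAH (ENSG00000178814), 5-oxoprolinase, is on chromosome 8 from 144051266 to 144063965 on the minus strand, with its MANE Select start at 144060692. It had the most BRG1 peaks of the group, 6, and the lowest BRG1 peak over a start. That peak ran from 144060506 to 144060947 with 21 fragments (13.0 to 32.1) against 3.01 expected, in the highest 32.8% of the list. The other 5 had 9 to 12 fragments. An NRF2 peak from 144060305 to 144060604, in intron 1, shared 99 bp with it and had its summit 398 bp away. Its 30 fragments (20.2 to 42.8) stood against 12.3 expected. By -log10 q it was at rank 8301 of its list, within the highest 91.8%. The expected number at both NRF2 peaks of this gene, 11.3 and 12.3, was above the 2.30 to 4.80 at the NRF2 peaks of the other genes. Why it was higher was not tested. ACTL6A had no peak at the start and 1 in intron 15, from 144055880 to 144056046, with 6 fragments against 0.733 expected and no overlap with another list. At the limit of 1 kb, a BRG1 peak of OPLAH 972 bp from the start was just inside, with 11 fragments, and a BRG1 peak of GLRX at 1012 bp just outside, with 17.

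GSR (ENSG00000104687), glutathione reductase, is on chromosome 8 from 30678066 to 30727846 on the minus strand. Its start had the highest BRG1 peak of the group and no peak of ACTL6A or NRF2. The peak ran from 30727637 to 30728031, with 185 bp upstream, 11 bp of 5′ UTR and 199 bp of coding sequence. It held 58 fragments (44 to 75) against 2.05 expected, with a -log10 q of 57.9, rank 684, in the highest 1.40% of the list. The nearest ACTL6A peak lay 16342 bp from the start and the nearest NRF2 peak 305756 bp from it. Among the 986 genes whose highest BRG1 peak at a TSS had at least 58 fragments, 91.9% had an ACTL6A peak at a TSS, 83.8% an NRF2 peak and 3.14%, 31 genes with GSR among them, neither. GSR also held the only ARE core within 100 bp of a summit in the group, 45 bp from the BRG1 summit and 87 bp upstream of the start, in a stretch where no NRF2 peak was called. In intron 6 a further BRG1 peak, from 30698385 to 30698790, held 12 fragments (6.20 to 21.0) against 0.637. Within 100 bp of its summit lay 2 matches to TGANTCA, the site of AP-1 factors, 14 bp and 45 bp from the summit. Over all BRG1 peaks 13.2% had such a match (Wilson 95% interval 12.9% to 13.5%). That share mixes in peaks at a TSS, of which 4.80% had one, so it is lower than among peaks away from a TSS, like this one.

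GPX1 (ENSG00000233276), the main cytosolic glutathione peroxidase, is a short gene (minus strand, chromosome 3, 49357174 to 49358605) with 7 distinct coding starts. All 3 antibodies had 1 peak each, at the start. The BRG1 peak ran from 49357920 to 49358841 and the NRF2 peak from 49357953 to 49358834, lying wholly within it. They held 28 fragments (18.6 to 40.5) against 2.48 expected and 21 (13.0 to 32.1) against 3.85. The ACTL6A peak was narrower, from 49358322 to 49358534, inside both, with 10 fragments (4.80 to 18.4) against 0.584. Its summit lay upstream, 150 bp from that of BRG1, which fell in the 5′ UTR, and 354 bp from that of NRF2, which fell in the coding part of exon 1. In each list GPX1 stood near the middle of the genes with a peak at a TSS, since 47.7% had a higher ACTL6A, 44.9% a higher BRG1 and 47.3% a higher NRF2 peak. The 3 peaks held no ARE core, and all lie within a readthrough gene, ENSG00000290318, as well.

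GPX2 (ENSG00000176153), the gastrointestinal glutathione peroxidase, is found at 64939152 to 64942746 of chromosome 14, minus strand. No list had a peak at its start. The nearest BRG1 peak was 16235 bp from the start and the nearest NRF2 peak 27842 bp from it. ACTL6A had a peak at the other end of the gene, from 64939039 to 64939438, with its summit in the 3′ UTR, 5 fragments (1.62 to 11.7) against 0.210 expected and rank 9690, in the highest 40.5%. It overlapped no BRG1 peak, as was so for most ACTL6A peaks away from a TSS, of which 33.5% overlapped one (Wilson 95% interval 32.8% to 34.3%). The same bases lie inside CHURC1 on the opposite strand. An ARE core, TGACTTAGC on the plus strand from 64942859 to 64942867, lay 118 bp upstream of the start and in no peak. The 200 bases upstream are printed on the plus strand with the core in capitals, to be read beside those of GCLM.
GPX2 chr14:64942746-64942945: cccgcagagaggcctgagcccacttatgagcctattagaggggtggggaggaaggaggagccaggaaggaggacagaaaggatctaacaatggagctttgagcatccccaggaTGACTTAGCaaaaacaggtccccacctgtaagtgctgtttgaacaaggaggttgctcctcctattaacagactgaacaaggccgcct

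GPX3 (ENSG00000211445), the secreted plasma peroxidase, is found at 151020591 to 151028988 of chromosome 5, plus strand, and had no peak of any antibody at its start. The nearest ACTL6A peak was 153587 bp from the start and the nearest NRF2 peak 60095 bp. The single BRG1 peak of the window, from 151035520 to 151035724, lay past the end of the gene inside TNIP1, with 6 fragments (2.20 to 13.1) against 0.630 expected.

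GLRX (ENSG00000173221), glutaredoxin, occupies bases 95751319 to 95822726 of chromosome 5, minus strand, and its peaks near the start were all upstream of it. The gene overlaps RHOBTB3, on the opposite strand, and all 5 peaks of the window lie inside RHOBTB3 in the annotation. A BRG1 peak from 95822777 to 95823032, 51 bp from the start, held 32 fragments (21.9 to 45.2) against 2.25 expected, in the highest 11.0% of the list. A BRG1 peak farther up, from 95823738 to 95823904, held 17 fragments (9.90 to 27.2) against 2.41. The NRF2 peak, from 95823478 to 95823934, had 22 fragments (13.8 to 33.3) against 4.76 and covered 100% of the farther BRG1 peak, with summits 76 bp apart, and did not reach the nearer one. Thus the NRF2 peak, 752 bp from the start, met the BRG1 peak with fewer fragments. ACTL6A had no peak there, and its only peak of the window, from 95781146 to 95781270 with 4 fragments, lay 2661 bp from a start of RHOBTB3. An ARE core, TGACTTTGC from 95823153 to 95823161, fell in the gap between the nearer BRG1 peak and the NRF2 peak. The shared stretch held 1 match to the AP-1 site, TGAATCA from 95823818 to 95823824, 23 bp from the BRG1 summit and 53 bp from the NRF2 summit. Among all NRF2 peaks 4.37% had an AP-1 match within 100 bp of the summit, and among those at a TSS 3.10%. The farther BRG1 peak is printed whole, on the plus strand, with the AP-1 match in capitals.
GLRX chr5:95823738-95823904: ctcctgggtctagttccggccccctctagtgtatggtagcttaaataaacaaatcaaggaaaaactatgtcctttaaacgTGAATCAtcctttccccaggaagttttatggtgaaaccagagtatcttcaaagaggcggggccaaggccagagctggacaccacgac

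The order of the genes by fragment count differed between antibodies, though most of the intervals within a list overlapped. By fragments at the highest peak within 1 kb of a TSS, BRG1 ran from GSR with 58 through GCLM with 48, GSS with 40, GGCT and GLRX with 32 each and GPX1 with 28 to OPLAH with 21. Neighbours in this order had overlapping Poisson intervals. The interval of GSR did not overlap those of GPX1 and OPLAH, and that of GCLM did not overlap that of OPLAH. The ACTL6A order was GGCT with 21, GPX1 with 10, GSS with 9 and GCLM with 6. These intervals all overlapped, those of GGCT (13.0 to 32.1) and GCLM (2.20 to 13.1) only just. For NRF2 the numbers ran from 30 at OPLAH to 15 at GGCT, and the intervals of all 5 genes overlapped. Set against all genes with a BRG1 peak at a TSS, whose median highest peak had a -log10 q of 15.3, 6 of the 7 genes here lay above it and OPLAH, at 8.75, below. For NRF2 the median was 6.0, with GSS at 6.59 and GPX1 at 6.24 above and GLRX at 5.36, GGCT at 5.03 and OPLAH at 2.26 below.

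**Figure D2:**
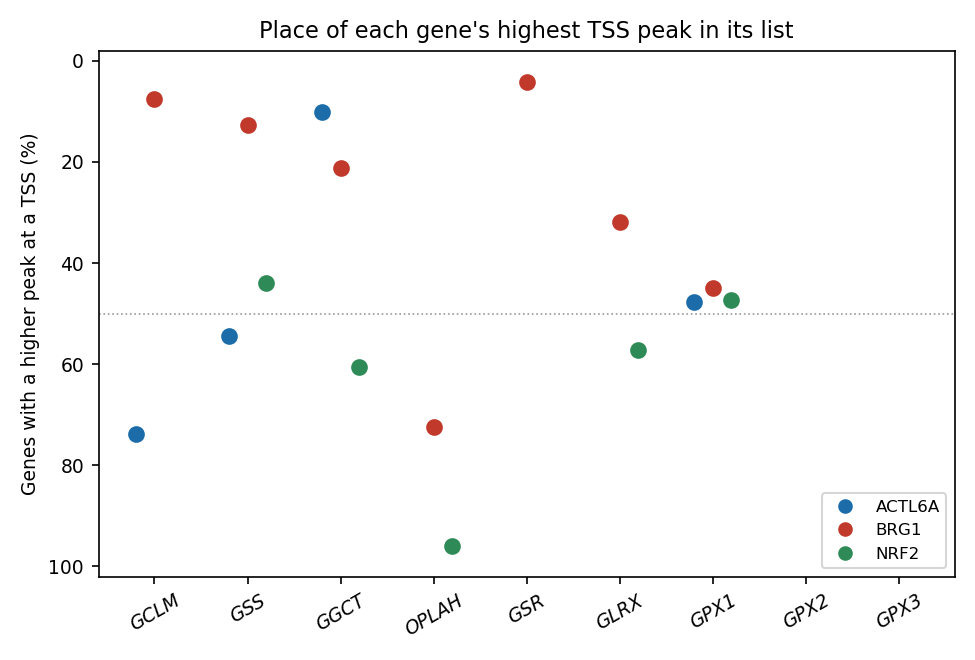
For each gene (x axis) and antibody (colour), the percentage of genes with a peak at a TSS whose highest such peak has a higher -log10 q (y axis, 0 at the top, dotted line at the middle). BRG1 at GSR (4.24%) and GCLM (7.52%) and ACTL6A at GGCT (10.1%) are nearest the top, and NRF2 at OPLAH (95.9%) is nearest the bottom.

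Peaks of different antibodies met mostly at starts. All 7 NRF2 peaks over the genes overlapped a BRG1 peak, against 66.2% of all NRF2 peaks (Wilson 95% interval 65.2% to 67.1%) and 94.9% of those at a TSS of any gene, where 6 of the 7 lay. Of the 8 ACTL6A peaks, the 5 at a TSS of any gene all overlapped a BRG1 peak (87.1% of all ACTL6A peaks at a TSS). Of the 3 elsewhere 0 did (33.5% of all ACTL6A peaks elsewhere). Of the 12 BRG1 peaks away from a TSS of any gene, 0 overlapped ACTL6A (16.4% of all such BRG1 peaks) and 2 overlapped NRF2 (4.88%). With 3 or 12 peaks, a count of 0 cannot be told apart from shares of this size.

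Across the 9 windows the ARE core occurred 127 times, and 3 of these lay inside a peak of GCLM, OPLAH or GSR, while peaks covered 2.43% of the 387389 bp. Within 100 bp of the summit, 0 of 7 NRF2 peaks, 0 of 8 ACTL6A peaks and 1 of 21 BRG1 peaks had the core, against 9.66% (9.07% to 10.3%), 9.88% (9.51% to 10.3%) and 11.5% (11.2% to 11.8%) of all peaks of the lists. With 7 or 8 peaks, a count of 0 cannot be told apart from shares of this size. The share in the whole NRF2 list was no higher than in the ACTL6A or BRG1 list, so an NRF2 peak was not read as a bound ARE. In RefSeq promoters of GRCh38.p14 (250 bases before to 50 after the start), the core was found in 13.3% of 35116, and in GCLM and GPX2 of the 5 genes matched (GCLM, GPX1, GPX2, GPX3 and GLRX).

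The starts differed in base composition, which the choice of genes did not use. CpG density (observed over expected CpG in the same 300 bases around the MANE Select start) had a median of 0.854 over the genes with a BRG1 peak at a TSS and 0.383 over those without. GCLM was highest at 1.10, GSS had 0.844, OPLAH 0.843, GSR 0.809, GGCT 0.729 and GPX1 0.632. GLRX, at 0.295, had a BRG1 peak with few CpG. GPX2, with no peak, had 0.187, and GPX3, also with no peak, had 0.664, above GPX1. Thus GLRX, with a BRG1 peak, lay below the median of the genes without one, and GPX3, without one, lay between the medians. The spread around the medians was not computed.

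There were 26 other genes of GSH synthesis (GCLC), breakdown, transport and use. At a TSS, 17 had a BRG1 peak (63.5% of all genes), 10 an ACTL6A peak (38.5%) and 9 an NRF2 peak (28.1%). All 3 peaks were found at 7 (22.1% of all genes), among them ESD, GCLC, GLO1, GLRX2, GLRX5 and LAP3. These counts were not tested against the shares over all genes. These include mitochondrial glutaredoxins (GLRX2 and GLRX5), the glyoxalase GLO1, which uses GSH to clear methylglyoxal, and the esterase ESD, which frees GSH from S-formylglutathione. Among the other peroxidase genes, named after their values were seen, GPX4 had BRG1 and NRF2 peaks at a TSS, and GPX5, GPX6, GPX7 and GPX8 had no peak of any antibody there.

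**Figure D3:**
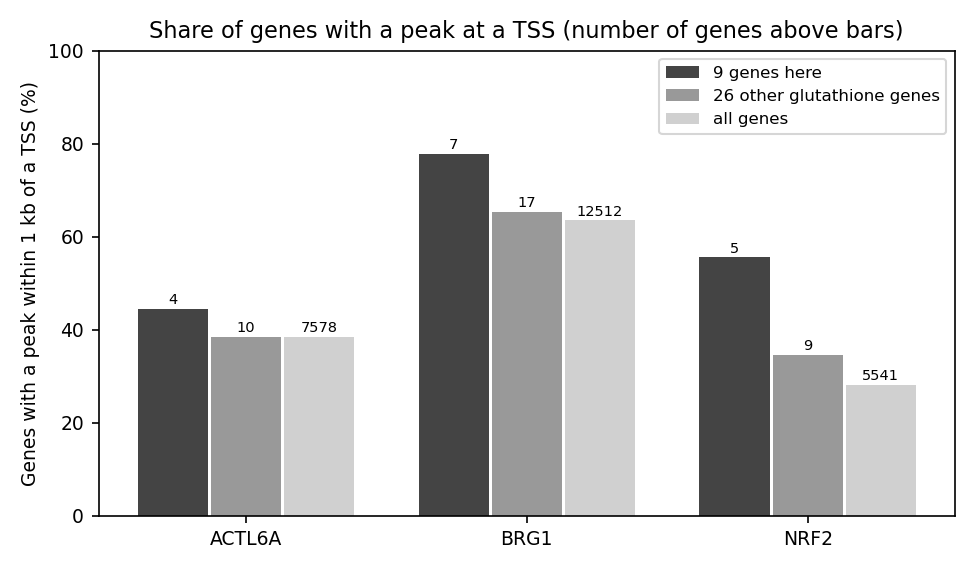
Percentage of genes with a peak within 1 kb of a TSS (y axis, from 0) for each antibody, in the 9 genes (dark), 26 other glutathione genes (grey) and all 19689 genes (light), with the number of genes above each bar. Of the 9 genes 4 had an ACTL6A, 7 a BRG1 and 5 an NRF2 peak. No test was made between the groups.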

How the data were processed

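Peak lists of 5 CUT&Tag libraries of SNU638 cells were used. Per the labels and the paper's methods, the authors read 150 bp from both ends and used fastp 0.23.0, BWA and MACS2 on uniquely mapped reads, with peaks kept below a q-value of 0.05. The build, hg38, is in the submitters' processing notes. The control given to the caller is not given in the sources used here. The deposited columns are a score (10 times the -log10 q), the fold enrichment (a ratio with a pseudocount of 1), the -log10 p and -log10 q, and the summit, whose offset sets its place.

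Positions are on GRCh38, counted from 1. Ranks were taken within a list by -log10 q, with ties at the best rank. Fragments at a summit were the whole number that gave both the fold and the Poisson p within 0.001 on the -log10 scale, found for all 36 peaks. The routines were tested on simulated data. Intervals (95%, exact Poisson or Wilson) cover counting error only. The Poisson intervals take fragments as independent. Reads without molecular identifiers need not be independent molecules, so these intervals can be too narrow. Read depth was not recomputed, since the lists hold no reads.

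The genes and lists were chosen with earlier results of these data known. All 9 genes are named, as are genes nearest to a peak and up to 6 others with all 3 peaks. Alternatives were stricter peaks, other windows and TSS distances, MANE Select starts alone, stricter overlap, other motif forms and the removal of peaks shared with IgG. For the whole fragments a looser tolerance of 0.01 was used. Printed sequences come from the GRCh38 genome. They were read with samtools 1.23.1 and pysam 0.24.0, plots were drawn with matplotlib 3.10.9, and the rest used SciPy 1.17.1, pandas 2.3.3 and NumPy 2.4.6 under Python 3.11.15.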

Additional observations from a re-analysis of the deposited data

How the results depend on the processing

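For 20 counts, 88 alternative values were computed, of which 21 moved by more than 1.5-fold, 4 rose from 0 and 63 did neither. Of these 63, 18 only removed peaks shared with IgG, of which these genes had 0, and 18 were counts that stayed at 0, which leaves 27. Not all of the 27 bear on stability. The looser tolerance could not change a count that all 36 peaks already met, and a wider TSS limit could only raise a count. With only peaks of -log10 q 5 or more, 3 ACTL6A and 10 BRG1 peaks remained over the genes, the ACTL6A peak of GCLM and the NRF2 peak at the start of OPLAH were lost, 3 ACTL6A peaks overlapped BRG1, and 4 of the other glutathione genes had an ACTL6A peak at a TSS. Among the highest 5000 peaks, 2 ACTL6A and 4 BRG1 peaks remained over the genes, 2 genes had an ACTL6A and 4 a BRG1 peak at a TSS, and the overlaps were 1 (ACTL6A on BRG1), 2 (NRF2 on BRG1) and 2 (ACTL6A on NRF2). Over the gene alone, BRG1 had 11 and NRF2 4 peaks, and with 50 kb to each side ACTL6A had 22, BRG1 60, NRF2 14 and IgG 2 1. When 50% of both peaks had to be shared, 2 ACTL6A and 4 NRF2 peaks overlapped BRG1 and 2 ACTL6A peaks overlapped NRF2. With a TSS limit of 250 bp the NRF2 peak of GLRX was lost and 4 genes had one. The looser pattern TGANNNNGC was near the summits of 1 ACTL6A, 7 BRG1 and 4 NRF2 peaks, and over whole peaks the ARE core was in 2 BRG1 and 1 NRF2 peaks. Fewer or more peaks follow from the construction of each alternative. The BRG1 peaks at the starts of GCLM, GSS, GGCT and GSR remained under every alternative run for them. This follows from their ranks, their places over the starts and their lack of IgG overlap, so it is no separate support.

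No paired analysis was possible because the 3 antibodies had no replicate libraries. The ACTL6A peaks here held 4 to 21 fragments, which limits what a missing ACTL6A peak can show.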

Other observations

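The window of GCLM also reached the start of DNTTIP2, a neighbouring gene on the same strand, and this was the only place in the 9 windows outside the starts of the 9 genes where all 3 antibodies had a peak. BRG1 had 17 fragments there against 0.931 expected, from 93878924 to 93879326, NRF2 17 against 2.30, from 93878678 to 93879283, and ACTL6A 5 against 0.449, from 93878811 to 93879283. The ACTL6A and NRF2 summits were 4 bp apart. This was the single NRF2 peak in the window of GCLM.

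Downstream of OPLAH, inside SPATC1, BRG1 and NRF2 peaks met away from any TSS. The BRG1 peak, from 144046779 to 144046965, held 10 fragments against 1.85 expected and shared all of its 187 bp with an NRF2 peak from 144046742 to 144047273, which held 33 against 11.3. The NRF2 peak held 1 ARE core, 348 bp from its summit.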
